A study of Mus musculus with 5 samples.

Results

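The ADAM (a disintegrin and metalloprotease) family was taken as every gene whose name in the expression table is Adam followed by a number and at most 1 letter, which leaves the Adamts genes out. These were 32 of 22401 named genes, present as 74 transcript rows, and the row with the highest mean of both libraries stood for each gene. Messenger RNA was sequenced from testis of 3-month-old Taf7l-/Y males and of wild-type (WT) males of the same age, in 1 library per genotype made from 6 pooled RNA extracts. Chromatin came from testis of 10 WT mice, also 3 months old. It was immunoprecipitated with antibodies to TAF7L, a paralogue of the TFIID subunit TAF7, and to RNA polymerase II (Pol II), in 1 library each. The sources used here give neither how the Taf7l knockout (KO) allele was made nor the strain of the mice. An IgG control library of the same chromatin was not used here. With 1 library per group no test between genotypes was possible, and differences are given by size.

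ADAM proteins are membrane-anchored and carry a prodomain, a metalloprotease-like domain and a disintegrin domain. Some cut the extracellular parts of other membrane proteins off the cell surface, and others have lost the zinc-binding residues of the protease and act in adhesion. In the mouse, a large branch of the family is made mainly in testis, where its proteins reach the sperm surface and take part in sperm migration through the oviduct and in contact with the egg. By this background knowledge 19 genes were classed as testis-restricted, 11 as broadly expressed or somatic, and Adam7 and Adam28 as epididymal. The libraries hold testis alone, so restriction to testis was not measured here.

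Among the 16 genes with a promoter sequence at hand, the classes differed in composition. The RefSeq promoter table (GRCm38.p6, 250 bases before to 50 after the start) held 16 of the 32 genes by symbol, with 9 promoters of testis-restricted genes and 9 promoters of 7 broadly expressed genes. The testis-restricted promoters had 0 to 4 CpG dinucleotides in 300 bases, with a median of 1, and the broadly expressed ones 5 to 32, with a median of 19. The median of all 32851 promoters in the table was 7. Several of the broadly expressed promoters are of Adam19, with 5, 11 and 5 CpG. Adam2, Adam3, Adam5 and Adam32, the testis-restricted genes with the highest WT signals, are among those without a promoter here. The following 8 promoters are shown because these genes differ in TAF7L score or in change between genotypes, and Adam6a and Adam6b because they are near copies. Capitals mark the CCAAT box, the letters TATAAA, or the letters TGACG, which are the core of the cAMP response element (CRE), on either strand. The windows of Adam1b and Adam17 hold none of these.
Adam1a: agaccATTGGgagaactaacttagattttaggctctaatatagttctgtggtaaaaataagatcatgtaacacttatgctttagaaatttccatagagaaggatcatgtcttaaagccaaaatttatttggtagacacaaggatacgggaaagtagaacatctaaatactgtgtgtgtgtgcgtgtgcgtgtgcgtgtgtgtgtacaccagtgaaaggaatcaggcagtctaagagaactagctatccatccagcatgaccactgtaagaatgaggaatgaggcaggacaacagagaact
Adam1b: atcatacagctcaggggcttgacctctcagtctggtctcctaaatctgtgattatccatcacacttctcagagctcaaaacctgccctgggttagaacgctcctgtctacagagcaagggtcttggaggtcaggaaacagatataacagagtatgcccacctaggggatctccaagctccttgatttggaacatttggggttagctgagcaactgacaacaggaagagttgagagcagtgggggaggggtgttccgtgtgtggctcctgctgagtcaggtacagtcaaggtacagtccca
Adam25: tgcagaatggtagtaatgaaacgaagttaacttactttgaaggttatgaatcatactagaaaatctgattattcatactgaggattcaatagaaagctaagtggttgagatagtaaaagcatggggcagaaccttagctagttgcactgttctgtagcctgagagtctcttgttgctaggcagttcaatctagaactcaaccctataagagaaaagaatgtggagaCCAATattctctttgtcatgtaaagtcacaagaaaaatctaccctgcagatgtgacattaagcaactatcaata
Adam26b: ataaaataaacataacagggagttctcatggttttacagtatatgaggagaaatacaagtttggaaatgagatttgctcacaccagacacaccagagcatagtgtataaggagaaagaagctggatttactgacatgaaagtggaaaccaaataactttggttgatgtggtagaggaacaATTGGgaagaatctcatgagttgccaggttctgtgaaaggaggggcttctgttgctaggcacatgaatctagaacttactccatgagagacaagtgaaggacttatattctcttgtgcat
Adam6a: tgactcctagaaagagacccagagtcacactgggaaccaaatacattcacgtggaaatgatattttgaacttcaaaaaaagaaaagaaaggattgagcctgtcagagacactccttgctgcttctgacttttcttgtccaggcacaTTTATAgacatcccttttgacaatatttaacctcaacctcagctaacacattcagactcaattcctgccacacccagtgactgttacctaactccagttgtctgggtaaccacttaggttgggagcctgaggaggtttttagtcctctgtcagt
Adam6b: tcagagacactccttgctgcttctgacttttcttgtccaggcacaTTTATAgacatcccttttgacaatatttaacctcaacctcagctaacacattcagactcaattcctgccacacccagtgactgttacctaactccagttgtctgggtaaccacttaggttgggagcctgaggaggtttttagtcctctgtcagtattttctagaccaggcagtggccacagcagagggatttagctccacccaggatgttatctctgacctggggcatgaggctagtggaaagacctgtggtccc
Adam10: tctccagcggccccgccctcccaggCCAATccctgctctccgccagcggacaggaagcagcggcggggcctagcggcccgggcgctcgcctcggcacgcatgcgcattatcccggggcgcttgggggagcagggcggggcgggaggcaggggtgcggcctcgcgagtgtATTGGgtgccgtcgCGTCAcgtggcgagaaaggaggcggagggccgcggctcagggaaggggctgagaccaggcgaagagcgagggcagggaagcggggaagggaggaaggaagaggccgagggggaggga
Adam17: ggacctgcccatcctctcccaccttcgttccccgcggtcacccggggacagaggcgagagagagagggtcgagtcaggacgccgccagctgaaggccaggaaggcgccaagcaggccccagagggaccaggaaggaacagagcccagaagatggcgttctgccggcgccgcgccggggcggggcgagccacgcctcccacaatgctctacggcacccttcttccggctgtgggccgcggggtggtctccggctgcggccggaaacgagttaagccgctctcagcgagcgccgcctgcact
These stretches lie at chr5:121521646-121521945 (Adam1a, minus strand), chr5:121503386-121503685 (Adam1b, minus), chr8:40751958-40752257 (Adam25, plus), chr8:43528088-43528387 (Adam26b, minus), chr12:113543658-113543957 (Adam6a, plus), chr12:113489315-113489614 (Adam6b, plus), chr9:70678732-70679031 (Adam10, plus) and chr12:21373583-21373882 (Adam17, minus). CCAAT, on either strand, was in 5 of the 9 testis-restricted and 4 of the 9 broadly expressed promoters, against 37.4% of all promoters. The letters TATAAA were in 3 testis-restricted promoters and in 0 broadly expressed ones, against 13.6% of all. The GC box GGGCGG was in 0 testis-restricted and 5 broadly expressed promoters, against 35.7% of all. Of the 18 promoters only that of Adam10 held TGACG, against 20.8% of all. The full CRE contains that core and reads TGACGTCA, and it was in none of the 18, against 1.79% of all. Adam6a and Adam6b share an identical run of 199 bases in these windows, while Adam1a and Adam1b share at most 8.

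Depth and the state of both libraries bear on every value. The labels give 100000000 to 200000000 reads for each RNA library. Signals are the authors' expression values, whose unit the header does not name. Levels of different genes are compared on the assumption that they are per transcript length. Each signal has a deposited SD, whose basis is not stated and which is not a spread between animals. Taf7l itself had 2.04 ± 0.600 in the KO library and 13.2 ± 1.56 in the WT library (deposited SD), a log2 change of -2.22. The change of a gene was log2((KO + 1)/(WT + 1)), computed for the 12846 genes with a mean of at least 1, and a gene was called at 2-fold. Of these genes 7.20% were called lower and 7.22% higher, and their median was 0.40. Rescaling the KO library to a median of 0 left 12.6% lower and 1.00% higher. All 10 late spermatid markers were lower, with a summed signal of 12370 in the KO and 68576 in the WT library. None of the 11 measured Sertoli markers was lower and 5 were higher, with sums of 1698 in KO and 828 in WT. The sums over macrophage markers were 111 in KO and 47.4 in WT, with 3 of 7 higher, and over peritubular markers 102 in KO and 46.2 in WT, with 3 of 5 higher. Over 8 Leydig markers, of which 3 were higher, they were 1589 in KO and 1937 in WT. Insl3 made up most of these sums, and 6 of the 8 had a higher KO signal of any size, against 72.6% of all genes. Over 10 pachytene markers, with 2 higher and 1 lower, the sums were 3297 in KO and 3758 in WT. Ldhc, with 2307 in KO and 2666 in WT, made up most of these sums. Of the 10 markers 7 had a higher KO signal of any size, against 72.6% of all genes. No measured member of these lists was at 0 in either library. Of 14 epididymal markers 6 were higher, with sums of 367 in KO and 9.99 in WT. Most of these 6 passed the filter through their KO values alone. In bulk tissue, fewer cells of a type and less RNA per cell cannot be told apart, and the part of these shifts in the changes below was not tested.

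All 19 testis-restricted genes were detected, and they made up nearly all of the family's signal. Their summed signal was 761 in the KO and 948 in the WT library, against 29.7 in KO and 15.4 in WT for the 11 broadly expressed genes. In the WT library Adam3 was the highest with 161 ± 5.45, followed by Adam2 with 147 ± 6.21, Adam32 with 132 ± 5.45, Adam5 with 112 ± 4.85, Adam1a with 84.0 ± 2.99 and Adam1b with 66.9 ± 2.54. Each of these 6 stood apart from the next by more than the deposited SDs. From Adam24, at 32.8, down to Adam6a, at 27.5, neighbours overlapped. In the KO library Adam2 came first with 193 ± 7.06, then Adam3 with 118 ± 4.17, while Adam32 and Adam5, both at 107, overlapped. Adam34 was the lowest of the class, with 0.677 ± 0.126 in the KO and 1.55 ± 0.268 in the WT library.

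**Figure D1:**
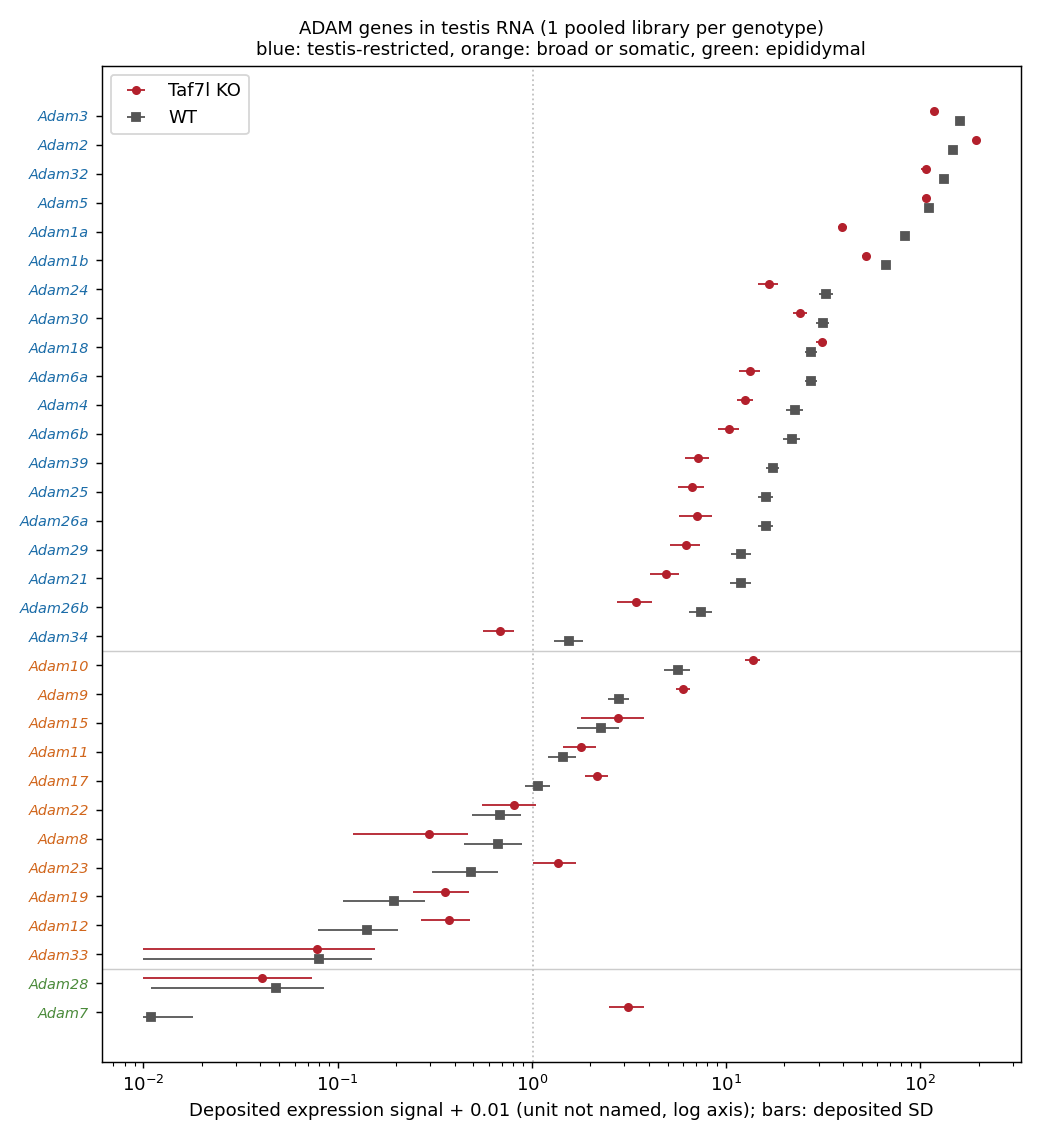
Deposited expression signal of the 32 ADAM genes in the Taf7l KO (circles) and WT (squares) testis libraries, on a log axis with 0.01 added, with deposited SDs as bars and a dotted line at a signal of 1. The blue testis-restricted genes reach 193 in the KO and 161 in the WT library, while the highest broadly expressed gene, Adam10, is at 13.8 in KO and 5.65 in WT.

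Most testis-restricted genes were lower in the KO library. Of the 19, 6 were at least 2-fold lower, against 7.20% of all genes, and 0 were at least 2-fold higher, against 7.22%. Their median change was -0.85, set beside 0.40 for all genes, and it was -1.26 after rescaling. With that scaling 11 of the 19 were past 2-fold, against 12.6% of all genes, and all 19 lay below the median of all genes. In 17 of 19 the KO signal was below the WT signal, which held for 27.4% of all genes. In 16 of these 17 the signals differed by more than both deposited SDs, a gap toward lower KO values that 17.1% of all genes had. With Adam2, whose KO signal was the higher one, 17 of 19 were apart in either direction, against 66.7% of all genes. Beside these, the 10 late spermatid markers had a median change of -2.43 and the 10 pachytene markers 0.75, and the part of either cell type in the ADAM values was not tested.

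**Figure D2:**
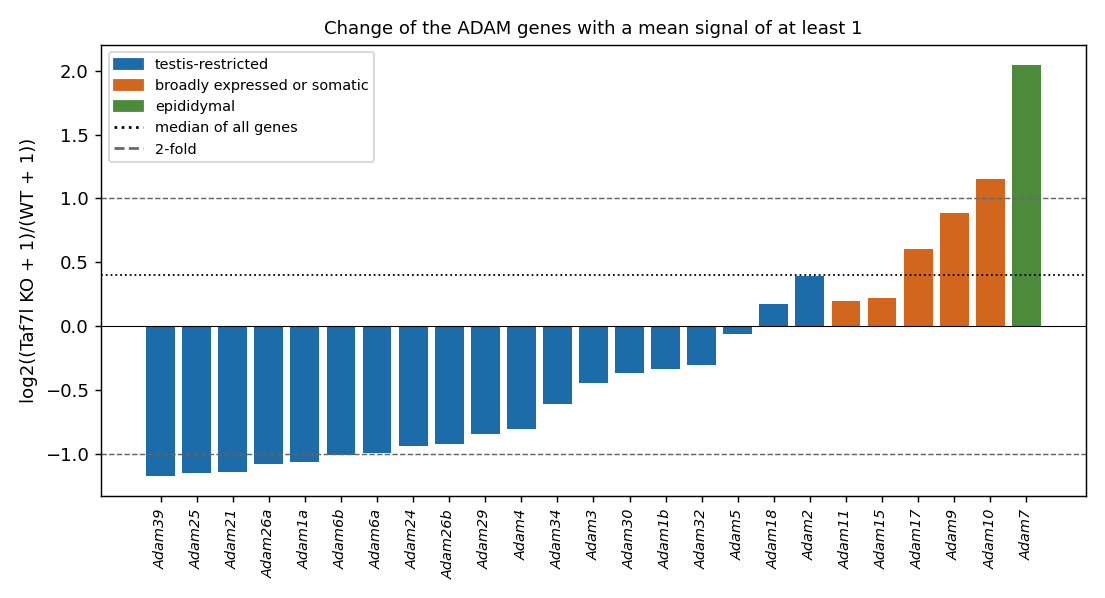
Change between genotypes, log2((Taf7l KO + 1)/(WT + 1)), of the 25 ADAM genes that passed the filter, by class. The testis-restricted bars run from -1.17 (Adam39) to 0.39 (Adam2). All 5 broadly expressed genes and Adam7 lie above 0, as do 72.6% of all genes.

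The fertilin and ADAM3 group holds the best known sperm members. Fertilin is a pair of an alpha subunit, from Adam1a or Adam1b, and the beta subunit ADAM2, and in mice ADAM2 is needed for other ADAM proteins to reach the sperm surface. Adam2 had 193 ± 7.06 in the KO and 147 ± 6.21 in the WT library, a log2 change of 0.39 that turned to -0.10 after rescaling. Adam1a had 39.8 ± 2.05 in the KO and 84.0 ± 2.99 in the WT library. At a log2 change of -1.06 it fell. Its protein is known in mice to stay inside the developing germ cell. Adam1b, whose protein pairs with ADAM2 on mature sperm, had 52.7 ± 2.76 in KO and 66.9 ± 2.54 in WT, a log2 change of -0.34. Adam1a was thus the higher of both alpha genes in the WT library and the lower in the KO library. Adam3, the cyritestin gene, whose loss in mice makes males infertile, had 118 ± 4.17 in the KO and 161 ± 5.45 in the WT library, a log2 change of -0.44.

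A block of ADAM genes on chromosome 8 holds Adam18, Adam3, Adam5, Adam32 and the broadly expressed Adam9 side by side (mm9, 25712718 to 26127394). Adam5 and Adam32, like Adam3 and Adam18, encode sperm members of the kind without a working protease site. Adam32 had 107 ± 6.10 in the KO and 132 ± 5.45 in the WT library, a log2 change of -0.30. Adam5 had 107 ± 4.65 in KO and 112 ± 4.85 in WT, a difference within the deposited SDs. For Adam18 the values were 31.1 ± 2.16 in KO and 27.5 ± 1.84 in WT, also overlapping, and its log2 change of 0.17 turned to -0.30 after rescaling. None of the testis-restricted genes of this block was past 2-fold, and 806 bases separate Adam32 from Adam9, whose signal was higher in the KO library.

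The testases form 2 further groups on chromosome 8. They are testis members of the family, several of which keep the zinc-binding site, and ADAM24 is known in mice for a part in keeping extra sperm from entering the egg. The first group spans Adam24, Adam25 and Adam39 (mm9, 41760448 to 41912215). Adam39 had 7.17 ± 1.02 in the KO and 17.4 ± 1.32 in the WT library, a log2 change of -1.17. Adam25 had 6.69 ± 1.05 in KO and 16.0 ± 1.42 in WT, a log2 change of -1.15. Adam24 had 16.6 ± 1.99 in KO and 32.8 ± 2.60 in WT, which at -0.94 was just within 2-fold. The KO signals of these 3 neighbours were thus all near or past the 2-fold limit, at 0.412 (Adam39), 0.418 (Adam25) and 0.508 (Adam24) of the WT signals. In the second group (44605218 to 44784845) Adam26a had 7.06 ± 1.37 in the KO and 16.0 ± 1.40 in the WT library and fell by 1.08 on the log2 scale. Adam26b had 3.45 ± 0.700 in KO and 7.42 ± 1.01 in WT, a log2 change of -0.92. Adam34 had -0.61 with 1 added to each signal, and a plain ratio of KO to WT of 0.436. All 6 testases named here had separate signals beyond the deposited SDs, and all 6 were lower in the KO library. How alike their transcripts are, and whether reads were shared between them in the counting, was not tested.

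A further 4 genes are described in the table as ADAM or testase genes but bear other names, so the family rule leaves them out. Of these 3 lie within the testase groups and Gm4787 lies on chromosome 12. They were looked up after the family's values were seen. The gene 4930529F22Rik, described as testase-8 and lying between Adam25 and Adam39, had 8.19 in the KO and 21.3 in the WT library and fell by 1.28 on the log2 scale. Gm4787, described as an ADAM4 relative and 40.06 kb from Adam4, had 27.6 in KO and 58.4 in WT and fell by 1.05. Gm5346, described as testase 6, had 1.30 in KO and 2.78 in WT, a log2 change of -0.72, and Gm5347 had 1.01 in KO and 2.62 in WT, a log2 change of -0.85. All 4 were lower in the KO library, against 27.4% of all genes, and 2 of them were past 2-fold, against 7.20%. Gm5347 lies within the span of Adam34, so its value may not be separate from that gene, which was not tested. A row spelled Adam-27 overlaps Adam18 and had 33.0 in the KO and 29.8 in the WT library.

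The other testis-restricted genes lie elsewhere. Adam6a and Adam6b, which are needed together for male fertility in mice, had 13.3 ± 1.58 and 10.4 ± 1.26 in the KO library, against 27.5 ± 2.05 and 21.8 ± 2.19 in the WT library. Their log2 changes were -0.99 and -1.01, on either side of the 2-fold limit, while the plain ratios of KO to WT were 0.484 and 0.475. Reads of these near copies may have been shared in the counting. Adam21, a testis gene of chromosome 12, had 4.88 ± 0.833 in the KO and 11.9 ± 1.50 in the WT library and fell by 1.14 on the log2 scale. Adam4 had 12.5 ± 1.20 in KO and 22.6 ± 2.33 in WT, a log2 change of -0.80. Adam29 had 6.23 ± 1.11 in KO and 12.0 ± 1.43 in WT, a log2 change of -0.85, and Adam30 had 24.2 ± 1.92 in KO and 31.4 ± 2.45 in WT, a log2 change of -0.36. The libraries were apart by more than the deposited SDs for all 6 of these genes.

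Transcript span, which the class rule did not use, split the testis-restricted genes. Several of these genes are known to be copies without introns in the coding part, and their transcripts cover little of the genome. Of the 12 with a span under 10 kb, all 12 had a lower KO signal and 6 were past 2-fold, and the median change was -1.00. Of the 7 with a span of at least 10 kb, 5 had a lower KO signal and 0 were past 2-fold, and the median change was -0.30. Over all genes, 10.2% of those under 10 kb and 5.36% of those of at least 10 kb had fallen past 2-fold, and the medians were 0.36 and 0.43. A lower KO signal of any size was seen in 1539 of 4842 genes under 10 kb and in 1980 of 8004 longer ones. The summed signal of the short genes was 199 in the KO and 356 in the WT library, and that of the long ones 563 in KO and 592 in WT. Adam30 and Adam1b were the short genes nearest to no change, and Adam29 and Adam34 the long genes with the lowest values. The count of 0 long genes depended on the scaling and on the value added to each signal. After rescaling, 10 of the 12 short genes and 1 of the 7 long ones, Adam29 at -1.26, were past 2-fold lower. Over all genes these were 805 of 4842 short and 811 of 8004 long ones. Adam34 had a plain ratio of KO to WT of 0.436, and a log2 change of -1.09 with 0.1 added in place of 1. The limit of 10 kb was set after the values were seen. Adam21, with a span of 9.89 kb and a log2 change of -1.14, lies just under it.

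**Figure D3:**
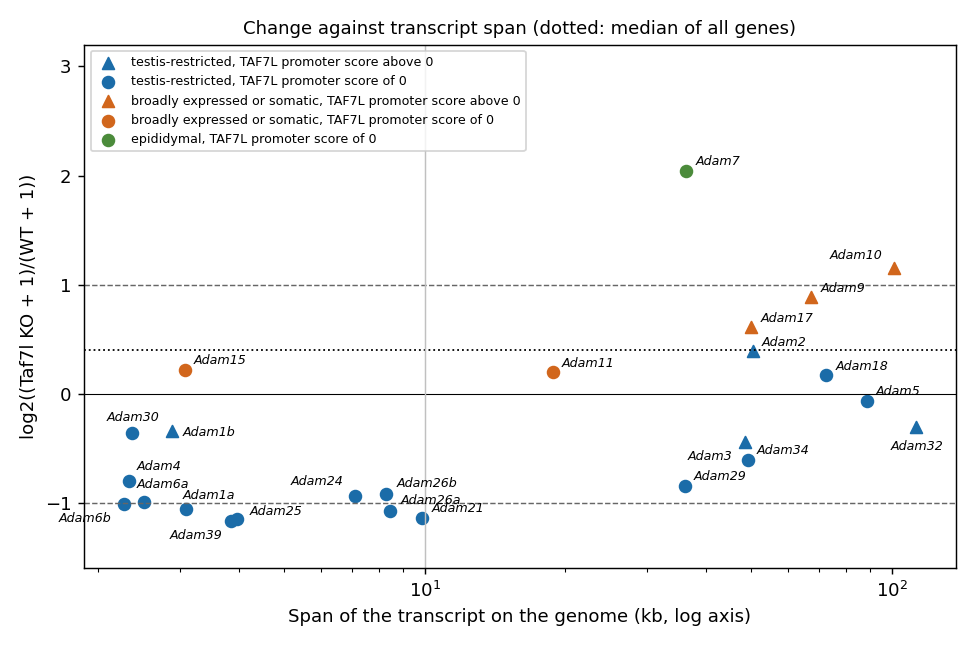
Change between genotypes against transcript span (kb, log axis) for the same 25 genes, with triangles for a TAF7L promoter score above 0 and the line at 10 kb. The 12 short testis-restricted genes lie between -1.17 and -0.34, and the 4 testis-restricted triangles between -0.44 and 0.39.

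Most broadly expressed ADAM genes had low signals in testis, and those that passed the filter had higher KO signals. Of the 11 genes 5 had a mean of at least 1, and 6 did not. All 5 had higher KO signals, as did 72.6% of all genes. Among them Adam10 alone was at least 2-fold higher, 20.0% against 7.22% of all genes, and none was lower. Their median change was 0.61, against 0.40 for all genes, and 0.29 after rescaling, when none was past 2-fold. With 5 in place of 1 added to each signal it was 0.24, against 0.23 for all genes. Adam10, which encodes a protease that cuts Notch receptors and cadherins, had 13.8 ± 1.23 in the KO and 5.65 ± 0.839 in the WT library, a log2 change of 1.15. Adam9, another widely expressed protease gene, had 6.02 ± 0.502 in KO and 2.81 ± 0.339 in WT, a log2 change of 0.88. Adam17, the gene of the protease that releases TNF, had 2.16 ± 0.295 in KO and 1.07 ± 0.165 in WT, a log2 change of 0.61. In these 3 the signals were apart by more than the deposited SDs, which held with higher KO values for 49.6% of all genes. The libraries overlapped for the other two. Adam15, the metargidin gene, with 2.79 ± 1.00 in KO and 2.25 ± 0.562 in WT, and Adam11, a brain member, with 1.79 ± 0.347 in KO and 1.44 ± 0.241 in WT, had log2 changes of 0.22 and 0.20 that turned to -0.13 and -0.10 after rescaling. Of the somatic marker sums given above, those of Sertoli, macrophage and peritubular markers were higher in the KO library and that of Leydig markers was lower. Most of the Leydig sum was Insl3, with 1052 in KO and 1686 in WT. Of the 8 Leydig markers 6 had higher KO signals, as did 72.6% of all genes, with a median change of 0.83.

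The 6 broadly expressed genes under the filter had signals of at most 1.35. Adam23, a brain receptor for LGI proteins, had 1.35 ± 0.339 in the KO and 0.479 ± 0.184 in the WT library. For Adam12, a meltrin gene of muscle and connective tissue, the values were 0.365 ± 0.106 in KO and 0.132 ± 0.063 in WT. These 2 genes were apart by more than the deposited SDs. Adam22, another LGI receptor, had 0.795 in KO and 0.675 in WT, Adam19 0.349 in KO and 0.185 in WT, Adam8, a gene of leukocytes, 0.285 in KO and 0.658 in WT, and Adam33 0.068 in KO and 0.070 in WT, all 4 with overlapping SDs.

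Adam7 had signal in the KO library and nearly none in the WT library. It encodes a protein of the epididymal duct that is passed to sperm, and had 3.13 ± 0.645 in the KO and 0.001 ± 0.007 in the WT library, with a log2 change of 2.04 that was 1.69 after rescaling. It passed the filter through its KO value alone, and its log2 change depended on the value added to each signal, at 5.00 with 0.1 and 0.70 with 5. Adam28, of epididymis and lymphocytes, had 0.031 ± 0.033 in KO and 0.038 ± 0.037 in WT. Of 14 epididymal marker genes, 8 passed the filter and 6 of these were at least 2-fold higher, against 7.22% of all genes. The summed signal over all 14 was 367 in the KO and 9.99 in the WT library. Apart from Cd52, the 6 had WT signals under 1 and passed the filter through their KO values alone. These calls thus follow largely from the filter. Rnase10 stands in both this list and that of ADAM3 maturation. Defb15, with the highest WT signal of the 14 at 4.59, passed the filter and was lower in the KO library. Its log2 change was -0.89, with wide and overlapping deposited SDs. After rescaling it was past 2-fold lower at -1.20. Crisp1 had 75.9 in KO and 0.042 in WT, Cd52 160 in KO and 3.17 in WT, and Defb28 49.6 in KO and 0.183 in WT. Spink8 had 36.1 in KO and 0.440 in WT, Defb2 had 23.7 in KO and was listed at 0 in the WT library, and Wfdc15b had 17.3 in KO and 0.007 in WT. Gpx5, Lcn5 and Lcn8, which mark the duct as well, had 0.132, 0.058 and 0.014 in the KO library and 0.020, 0 and 0.013 in the WT library. The part of such tissue in the value of Adam7 was not tested.

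TAF7L promoter scores were given to few testis-restricted genes. Scores are the authors' own, with no definition in the header, and a 0 is taken here as no signal assigned. Of the 19 genes 4 had a TAF7L promoter score, 21.1% against 47.6% of all genes past the filter, and 9 had a Pol II promoter score, 47.4% against 76.4%. Among those 9 genes the 4 with TAF7L compare with 62.0% of all genes that have a Pol II promoter score. Adam32 had a TAF7L score of 75.1 with a Pol II score of 480, Adam3 62.3 with 277, Adam2 58.5 with 539 and Adam1b 33.5 with 209. The chosen Adam5 row had TAF7L and Pol II scores of 63.5 and 387 in the proximal class, and its other 3 rows had these same scores in the promoter class. Adam18, Adam30, Adam1a, Adam4 and Adam34 had Pol II promoter scores of 180, 171, 134, 64.1 and 47.4 and a TAF7L promoter score of 0. Adam1a and Adam1b had equal distal scores, 79.8 for TAF7L and 279 for Pol II, and lie 15.62 kb apart. Adam1a also had a proximal TAF7L score of 32.2, and Adam21 a distal one of 35.6. In the second testase group, the Pol II score of 47.4 at Adam34 also stood at Gm5347, which overlaps it.

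Adam25, Adam26a, Adam26b, Adam29, Adam6a and Adam6b had a score of 0 for both antibodies in all position classes. Their WT signals ran from 7.42 for Adam26b to 27.5 for Adam6a. A Pol II score in some class was given to 13 of the 19 testis-restricted genes, against 94.5% of all genes, and a TAF7L score to 7, against 75.8%. Proximal TAF7L scores stood at 2 of the 19, against 28.0% of all genes, and distal ones at 3, against 49.7%. Proximal Pol II scores stood at 4, against 56.0%, and distal ones at 8, against 73.4%. The class thus had fewer scores than all genes in each position class. The 4 genes with a TAF7L promoter score had log2 changes of -0.44 to 0.39, and none was past 2-fold, while the 6 genes that fell all had a TAF7L promoter score of 0. Over all genes, 2.91% of those with a TAF7L promoter score and 11.1% of those without were past 2-fold lower. A lower KO signal of any size was seen in 3 of the 4 genes with the score, against 21.0% of all such genes, and in 14 of the 15 without it, against 33.2%.

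**Figure D4:**
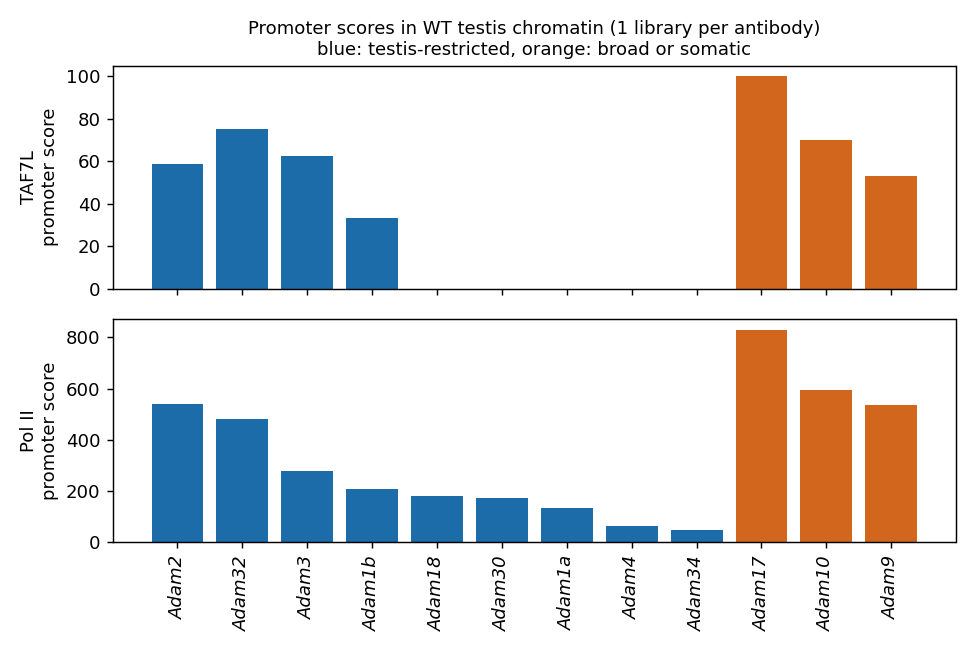
TAF7L (top) and Pol II (bottom) promoter scores in WT testis chromatin for the 12 ADAM genes that passed the filter and have a score for either antibody. Of the 9 testis-restricted genes shown 4 have a TAF7L score, up to 75.1 at Adam32, and all 3 broadly expressed genes have both scores, up to 100 and 829 at Adam17.

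Among the 5 broadly expressed genes that passed the filter, 3 had both promoter scores. Adam17 had the highest TAF7L score of the family, 100, with a Pol II score of 829. Adam10 had 70.2 and 595, and Adam9 53.2 and 534. Tm2d2, which lies 288 bases from Adam9, had the same Pol II promoter score of 534 and a TAF7L score of 52.5. Adam15 had a Pol II score of 193, which was proximal for the chosen row and in the promoter class for its other 3 rows, and a TAF7L promoter score of 0. Adam11 had a promoter score of 0 for both antibodies. Adam19, with a mean under 1, had a Pol II promoter score of 122 with no TAF7L score. The epididymal Adam7 had 0 in all classes.

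Proteins that fold, process or carry ADAM3 to the sperm surface in mice were given by a list of 14 genes, of which 13 were measured. Of these 4 were at least 2-fold lower and 1 higher, against 7.20% and 7.22% of all genes, and their median was 0.12. Ace, whose testis form is needed for ADAM3 to be distributed on sperm, had 31.5 ± 1.78 in the KO and 101 ± 2.83 in the WT library and fell by 1.64 on the log2 scale. The testis chaperone genes Calr3 and Pdilt had 23.7 ± 2.14 and 29.5 ± 2.48 in the KO library, against 65.2 ± 3.56 and 71.1 ± 4.57 in the WT library, log2 changes of -1.42 and -1.24. Prss37, a serine protease homologue, had 59.3 ± 5.52 in KO and 138 ± 6.63 in WT, a log2 change of -1.20. Tex101, the gene of a glycoprotein on germ cells without which ADAM3 is lost from mouse sperm, had 108 ± 5.94 in the KO and 40.3 ± 2.95 in the WT library, a log2 change of 1.40, and 0.91 after rescaling. Clgn, the calmegin gene, whose protein binds ADAM1a and ADAM2 as they fold, had 169 ± 4.88 in KO and 149 ± 4.32 in WT, a log2 change of 0.19. Cmtm2b, the most abundant in the WT library, had 470 ± 15.5 in KO and 446 ± 16.8 in WT.

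Regulators of ADAM10 and ADAM17 and the proteases that remove ADAM prodomains were followed in the same libraries. Of 13 regulators 9 passed the filter, 1 was higher, against 7.22% of all genes, and none was lower, against 7.20%. Their median was 0.66, against 0.40 for all genes, and after rescaling none was past 2-fold. Tspan33, a tetraspanin that binds ADAM10, had 7.93 ± 1.10 in the KO and 3.27 ± 0.483 in the WT library, a log2 change of 1.06 that was 0.63 after rescaling. Frmd8, an ADAM17 stabiliser with the highest WT signal of the list, had 246 ± 92.2 in KO and 182 ± 80.6 in WT, with wide and overlapping SDs. Its log2 change of 0.43 turned to -0.06 after rescaling. Its row covers only a short stretch of chromosome 19 (mm9, 5874771 to 5875208), so its level may not compare with those of longer transcripts. Timp3, an inhibitor of ADAM17, had 6.47 ± 0.645 in KO and 3.71 ± 0.508 in WT, a log2 change of 0.66. Of 7 proprotein convertases 4 passed, and Furin alone was past 2-fold, against 7.22% of all genes higher, with 8.62 ± 0.779 in the KO and 3.70 ± 0.431 in the WT library. Its log2 change was 1.03, and 0.60 after rescaling. Pcsk4, a convertase of spermatids without which ADAM2 is processed abnormally in mice, had 25.3 ± 2.60 in KO and 43.9 ± 3.68 in WT, a log2 change of -0.77, and of -1.24 after rescaling.

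**Figure D5:**
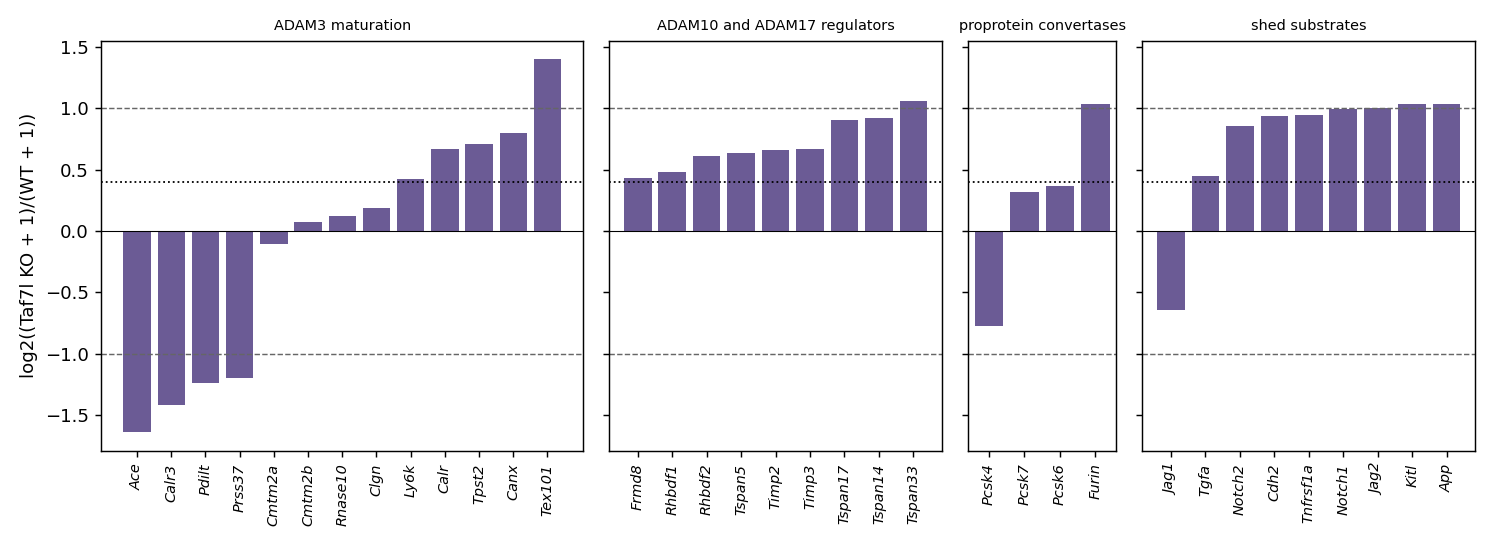
Change between genotypes, log2((Taf7l KO + 1)/(WT + 1)), of the genes of 4 lists that passed the filter around the ADAM family, with dashed lines at 2-fold and a dotted line at the median of all genes, 0.40. In the ADAM3 list the bars run from -1.64 (Ace) to 1.40 (Tex101). All 9 such regulators of ADAM10 and ADAM17 lie above 0, as do 72.6% of all genes.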

How the data were processed

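The authors deposited 2 tables for 5 libraries. The expression table gives, per the file headers, a mean and SD of an expression signal per transcript and genotype, a log2 ratio of WT to KO and a ratio of SD to mean. The binding table holds, per the file headers, 3 scores for each of both antibodies, 1 per position class. The IgG library was not analysed here. The submitters' processing notes name Bowtie, TopHat and Cufflinks and the build mm9; the sources used here give no filters, peak caller or use of strand. The deposited log2 ratio lay within 0.02 of one recomputed with 0.001 added for 31 of 32 members. Positions in the table count starts from 0, since end minus start equalled the RefSeq length for 404 of 418 microRNA hairpins; 1 was added to each start.

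Of 55350 rows, 8306 with no name in the reference name tables were left out, which gave 22401 genes. Binding scores were joined by transcript identifier for all 74 rows of the family. Signals are not counts, so intervals and count tests were not used. The design foresaw Cufflinks-type values, while the header names no unit; with 1 library per group no test was made. Deposited SDs describe no spread between animals. Promoters were matched by symbol in RefSeq GRCm38.p6, and none of its coordinates was joined to mm9. Members, classes and gene lists were chosen with earlier results of these data known. Every family member is named. Of other lists, marker lists apart, the most abundant in the WT library and those past 2-fold are named. Also named are Clgn, Timp3, Pcsk4, Jag1, Gpx5, Lcn5, Lcn8, Defb15, Insl3 and Tm2d2, chosen after their values were seen. The calling step was tested on simulated data. Python 3.11.15, pandas 2.3.3 and matplotlib 3.10.9 were used.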

Additional observations from a re-analysis of the deposited data

How the results depend on the processing

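Without a second library per genotype no replicate could be left out. No paired analysis was possible because each group has 1 library. The testis-restricted count of 6 genes at least 2-fold lower was 9 with a pseudocount of 0.1, 0 with a pseudocount of 5 and 11 after rescaling, when 12.6% of all genes were lower, and the median was then -1.26. The share of all genes called lower was 9.00% and 4.56% with these pseudocounts. The broadly expressed count of 1 higher gene was 2 with a pseudocount of 0.1, 0 with a pseudocount of 5 and 0 after rescaling. In these settings 16.3%, 1.87% and 1.00% of all genes were called higher, against 7.22% in the main one. With Adam1a in the broadly expressed class, 1 of its 6 genes was at least 2-fold lower, against 7.20% of all genes. Its median of 0.61 was 0.24 with a pseudocount of 5 (all genes 0.23) and 0.22 over all 11 genes with no filter (all genes 0.10). At a mean of at least 5 only Adam10 was left of the class, with 1.15. After rescaling Adam2 (-0.10), Adam18 (-0.30), Adam11 (-0.10) and Adam15 (-0.13) changed sign. The other row choices, the filters and a limit on the deposited SD, added after the data were seen, moved no count of either class past 1.5 times. Promoter score counts stayed within 1.5 times under every alternative, with 3 to 6 of the 19 testis-restricted genes for TAF7L and 8 to 11 for Pol II. The share of all genes ran from 36.8% to 56.9% for TAF7L and from 75.0% to 85.8% for Pol II in the same settings. The cause of these shifts was not tested. Read counts per gene are unknown, and 5 of the 7 family members with a mean under 1 had overlapping deposited SDs.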

Other observations

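Membrane proteins that ADAM10 or ADAM17 can cut, by a list of 20 genes, were mostly low in testis. Of these 9 passed the filter, 3 were at least 2-fold higher, against 7.22% of all genes, and none was lower, with a median of 0.95. App, the amyloid precursor gene, had 13.6 ± 0.603 in the KO and 6.12 ± 0.408 in the WT library, a log2 change of 1.04. Kitl, the stem cell factor gene of Sertoli cells, had 6.69 ± 2.06 in KO and 2.76 ± 1.47 in WT, and its deposited SDs were wide. Jag2, a Notch ligand, had 9.97 ± 1.27 in KO and 4.47 ± 0.663 in WT. Cdh2, the N-cadherin gene and the most abundant of the list, had 28.9 ± 1.43 in KO and 14.6 ± 1.12 in WT, a log2 change of 0.93. Jag1, another Notch ligand, had 4.19 ± 0.598 in the KO and 7.10 ± 0.688 in the WT library, a log2 change of -0.64. After rescaling none of the list was past 2-fold higher, and Jag1 was past 2-fold lower at -1.03. Of the 4 LGI genes, which encode ligands of ADAM22 and ADAM23, Lgi4 alone passed the filter, with 2.20 ± 0.574 in the KO and 0.974 ± 0.285 in the WT library.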
